A study of Mus musculus with 7 samples.

Results

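The proneural and neuronal basic helix-loop-helix (bHLH) loci are the genes Neurog1, Neurog2, Neurod1, Neurod2, Neurod4, Neurod6, Bhlhe22, Nhlh1 and Nhlh2, each taken from 50 kb before to 50 kb after the gene on mouse genome build GRCm38. They are 9 of 21887 protein-coding loci, and all 9 were found in the RefSeq gene table. Open chromatin had been profiled by ATAC-seq, in which a transposase cuts accessible DNA, in 4 L3mbtl3 knockout and 3 wild-type libraries. Knockout libraries carried the genotype L3mbtl3 -/- and both genotypes were CD-1 mice at E14.5, a stage of mid-neurogenesis. The cells were dorsal telencephalic progenitors selected for CD15, a carbohydrate on the surface of neural stem cells. The L3mbtl3 product belongs to the MBT-domain family of chromatin proteins, and the labels put no library in a heterozygous group. The labels used here say neither how the allele was made nor whether a library came from 1 embryo or a pool, so p-values measure only the spread between these libraries, which may be technical.

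Proneural bHLH factors commit cycling progenitors to the neuronal fate, and the neuronal bHLH factors they switch on carry differentiation forward. They act as dimers with E proteins and bind the E-box, a short DNA motif with the letters CANNTG. In the dorsal telencephalon Neurog2 and Neurog1 act in progenitors of the excitatory lineage, and Neurod and Nhlh genes are known mostly from cells leaving the cell cycle. A peak marks accessible DNA and is not a measure of expression. In these libraries of many selected cells a site open in fewer cells and a site less open in each cell cannot be told apart.

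The data are 1 list of broad peaks per library, with 9827, 7111, 3366 and 17362 peaks in knockout libraries 1 to 4 and 7448, 11394 and 6458 in wild-type libraries 1 to 3. Knockout libraries 3 and 4 stand apart as the shortest and the longest list. The 62966 peaks formed 25623 regions when peaks overlapping by at least 1 bp were merged, and pairs of libraries shared between 15.8% and 43.8% of the regions called in either. Sequencing depth is unknown, since the lists hold no read counts. Near the ends of L3mbtl3, to 1 kb, no library had a peak, so the lists do not check the genotype. Of the 14 marker loci of dorsal telencephalic progenitors, 5 to 12 had a peak in knockout and 7 to 10 in wild-type libraries, and the marker Hes1 had none in any library. Markers of endothelium had a peak at 0 to 5 of 5 loci in knockout and 0 to 1 in wild-type libraries, and those of microglia and blood at 0 to 3 of 5 in knockout and 1 to 3 in wild-type libraries. Markers of meninges had a peak at 1 of 5 loci in every knockout library and at 1 to 2 in wild-type libraries. Cortical neuron markers had a peak at 3 to 7 of 7 loci in knockout and 3 to 4 in wild-type libraries, and ventral telencephalon markers at 1 to 3 of 7 in knockout and at 1 in every wild-type library. No library had a peak at 3 ventral telencephalon, 3 meninges and 1 microglia and blood marker. Of all protein-coding loci, 17.2% to 60.0% had a peak in knockout and 28.2% to 38.7% in wild-type libraries. These marker counts were not tested and do not measure cell content.

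Peaks lay at or within 1 kb of the gene at only 3 of the 9 members, Neurog2, Neurod1 and Bhlhe22. The start sites of Neurog2 and Neurod1 are shown because peaks lie at or beside them. The RefSeq promoter windows on GRCm38.p6 run from 250 bases before to 50 after a transcript start and were found for 8 of the 9 members, all but Bhlhe22. At Neurog2 (chr3:127632886-127633185, plus strand) the peaks of knockout library 4 and wild-type library 1 ended just before the window, the nearest at a gap of 24 bases. This window lies inside the RefSeq gene span, which begins at 127632733, so both peaks overlap the lower end of the gene. At Neurod1 (chr2:79456587-79456886, minus strand) a peak of knockout library 4 overlapped the window by 10 bases. Nhlh2 (chr3:102009895-102010194, plus strand) is shown for contrast, since it holds the most E-boxes of these 8 members and its nearest peak in any library lay 15154 bases away. E-boxes (CANNTG, which reads the same on both strands) are in capitals, and each line runs 5′ to 3′ on the gene's strand.
Neurog2: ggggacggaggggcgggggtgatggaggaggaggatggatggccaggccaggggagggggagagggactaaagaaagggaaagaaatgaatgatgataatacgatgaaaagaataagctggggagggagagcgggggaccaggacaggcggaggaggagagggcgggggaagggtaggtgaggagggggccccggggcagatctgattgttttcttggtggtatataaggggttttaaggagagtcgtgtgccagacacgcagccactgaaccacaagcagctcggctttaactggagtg
Neurod1: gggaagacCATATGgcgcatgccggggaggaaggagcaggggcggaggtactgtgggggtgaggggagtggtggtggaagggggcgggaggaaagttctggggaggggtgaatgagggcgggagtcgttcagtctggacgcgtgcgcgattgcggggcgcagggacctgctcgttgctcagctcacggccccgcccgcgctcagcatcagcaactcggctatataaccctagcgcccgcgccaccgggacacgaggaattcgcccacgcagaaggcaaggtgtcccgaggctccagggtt
Nhlh2: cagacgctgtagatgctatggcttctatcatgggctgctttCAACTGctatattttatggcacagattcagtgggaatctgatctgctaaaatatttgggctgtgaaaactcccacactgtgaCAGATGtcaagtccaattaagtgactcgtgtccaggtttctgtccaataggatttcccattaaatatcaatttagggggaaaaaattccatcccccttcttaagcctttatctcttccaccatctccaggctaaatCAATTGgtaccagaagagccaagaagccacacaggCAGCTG
The Neurog2 window, with a G+C content of 58.0%, held no E-box, that of Neurod1, at 66.7%, held 1 and that of Nhlh2, at 43.3%, held 4. The last include CAGATG and CAGCTG, forms of the E-box known to be bound by proneural factors, and both lie within the 4 CANNTG matches. Of all 32851 promoter windows of the same length, 72.3% hold CANNTG, 17.2% hold CAGATG or its reverse complement CATCTG, and 16.3% hold CAGCTG. Among the 9 member windows, of which Neurod4 has 2, the counts were 7, 3 and 2. A match describes the letters and is not evidence of binding.

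The 9 loci held 50 peaks in all, and they were spread unevenly over the genes. Neurog2 and Neurod4 held 13 peaks each and Bhlhe22 held 10. Neurod6 and Nhlh1 held 4 each, Neurod1 and Nhlh2 2 each, and Neurog1 and Neurod2 1 each. Every member was thus called in at least 1 library, against 69.2% of all protein-coding loci. The median was 4 peaks per locus over the 7 libraries, against 2 over all protein-coding loci and 1 over the 8961 loci of genes no longer than the longest member.

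**Figure D1:**
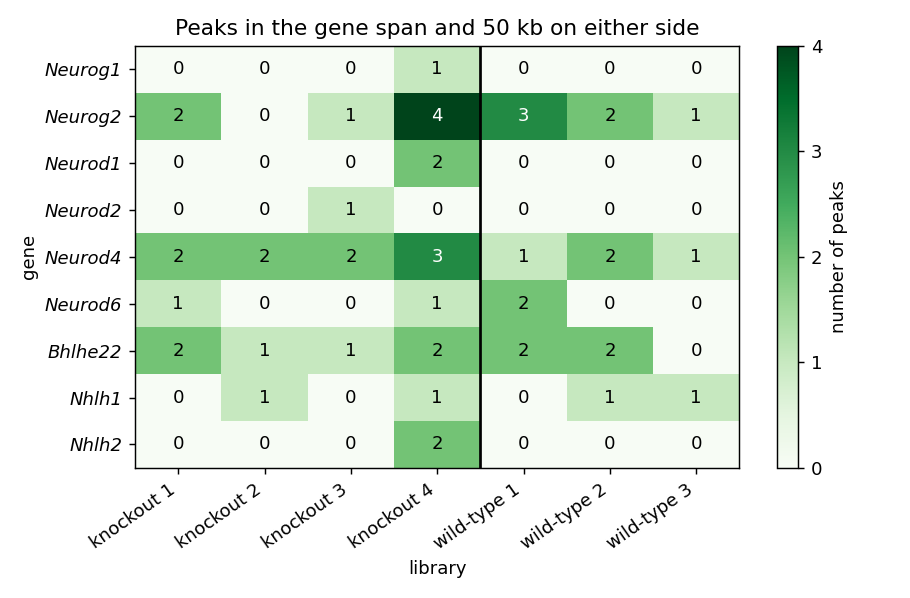
Number of peaks from 50 kb before to 50 kb after each gene (rows) in each library (columns), with knockout libraries left and wild-type libraries right of the line. Neurog2, Neurod4 and Bhlhe22 are filled in most libraries, while Neurog1, Neurod1 and Nhlh2 have peaks in knockout library 4 alone and Neurod2 in knockout library 3 alone.

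Across the 9 loci together, knockout libraries 1 to 4 held 7, 4, 5 and 16 peaks, against 8, 7 and 3 in wild-type libraries 1 to 3. Knockout library 4 had as many as the other 3 knockout libraries together, and without it the knockout values lay inside the wild-type range. The means were 8 ± 5.48 peaks in knockout and 6 ± 2.65 in wild-type libraries (SD, n = 4 and 3), a difference of 2, below the SD of each genotype. Without knockout library 4 the difference was -0.667, and without knockout library 2 it was 3.33. Since the lists differ in length, the same counts were also scaled, and per 1000 peaks of the same list the values were 0.712, 0.563, 1.49 and 0.922 in knockout against 1.07, 0.614 and 0.465 in wild-type libraries. On this scale knockout library 3, the shortest list, was highest, and the genotypes overlapped, with means of 0.920 ± 0.404 and 0.718 ± 0.318 in knockout and wild-type libraries (SD, n = 4 and 3). Without knockout library 3 the difference of 0.203 per 1000 became 0.0145, and without wild-type library 1 it became 0.381. All protein-coding loci held on average 0.561 ± 0.432 peaks per locus in knockout and 0.480 ± 0.134 in wild-type libraries, against 0.889 ± 0.609 and 0.667 ± 0.294 for the bHLH loci (SD, n = 4 and 3).

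**Figure D2:**
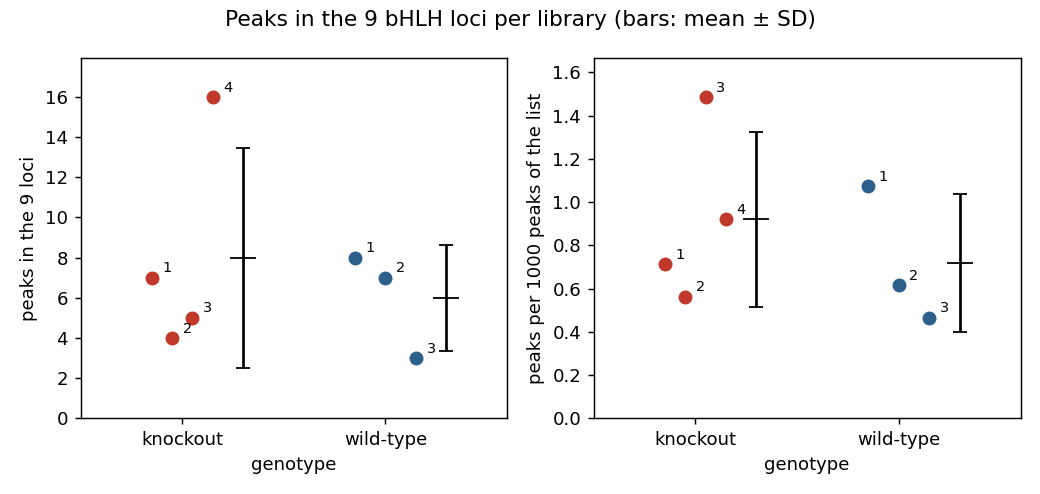
Peaks in the 9 bHLH loci per library as a number (left) and per 1000 peaks of the same list (right), knockout left of wild-type, with replicate numbers beside the points and bars for the mean ± SD. Knockout library 4 is highest in number at 16, and knockout library 3 is highest per 1000 peaks at 1.49.

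With the window of 50 kb, the bHLH loci were called more often in each library than protein-coding loci as a whole. The number of the 9 loci with a peak was 4, 3, 4 and 8 in knockout libraries 1 to 4 and 4, 4 and 3 in wild-type libraries 1 to 3. As shares these are 33.3% to 88.9% in knockout and 33.3% to 44.4% in wild-type libraries, against 17.2% to 60.0% and 28.2% to 38.7% of all protein-coding loci. The member share was the higher in 7 of 7 libraries, and this is given as a description with no test. It did not hold with a window of 10 kb. There 0, 0, 2 and 5 of the 9 loci were called in knockout libraries 1 to 4, and 2, 3 and 1 in wild-type libraries 1 to 3. Of all protein-coding loci, 19.2%, 13.9%, 9.26% and 37.6% were then called in knockout and 16.7%, 23.1% and 15.6% in wild-type libraries. Neurog2, Neurod4 and Bhlhe22 recur among the called loci, so the libraries do not bear on the set independently. In wild-type library 3 the shares were 33.3% against 28.2%. There the members held fewer peaks per locus than all protein-coding loci, 0.333 against 0.387, while in every other library they held more. The mean number was 4.75 ± 2.22 in knockout and 3.67 ± 0.577 in wild-type libraries (SD, n = 4 and 3). The difference of 1.08 loci became 0 without knockout library 4. At gene ends, knockout libraries 1 to 3 had none of the 9 genes called and knockout library 4 had 3, against 1, 1 and 0 in wild-type libraries 1 to 3. Of all protein-coding genes, 8.76%, 6.12%, 3.55% and 18.0% were called at an end in knockout libraries 1 to 4, against 7.41%, 11.1% and 6.63% in wild-type libraries 1 to 3.

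**Figure D3:**
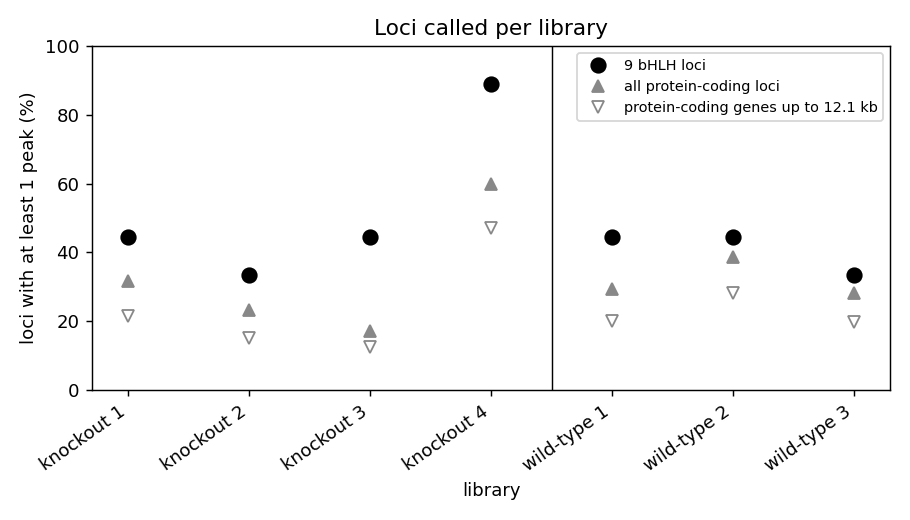
Share of loci with at least 1 peak in each library, for the 9 bHLH loci (circles), all protein-coding loci (filled triangles) and protein-coding genes no longer than the longest member, 12.1 kb (open triangles), with knockout libraries left of the line. The circles lie above the triangles in every library, and all 3 sets are highest in knockout library 4.

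Of the proneural genes, Neurog2, a principal neurogenic factor of the dorsal telencephalon, had peaks in most libraries and Neurog1 in 1. Neurog2 (chromosome 3, 127632733 to 127635636) held 2, 0, 1 and 4 peaks in knockout libraries 1 to 4, against 3, 2 and 1 in wild-type libraries 1 to 3. The genotypes overlapped, and both the highest and the lowest library were knockouts. The means were 1.75 ± 1.71 peaks in knockout and 2 ± 1 in wild-type libraries (SD, n = 4 and 3), a difference of -0.25 (two-sided exact permutation p = 1, Benjamini-Hochberg adjusted p = 1 over all 21887 loci).

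The peaks of Neurog2 lay at 4 positions. The most often called began 16.1 kb beyond the 3′ end (chromosome 3, 127651780 to 127652483), with peaks in knockout libraries 1 and 4 and in wild-type libraries 1, 2 and 3. All 5 peaks shared the bases 127651853 to 127651948, although their widths ran from 96 to 681 bp. Their deposited fold enrichment, the authors' ratio over the peak caller's background, was 3.86 and 4.51 in knockout and 4.28, 4.91 and 4.39 in wild-type libraries. The region was called in 2 of 4 knockout and 3 of 3 wild-type libraries (Fisher's exact p = 0.429, adjusted p = 1 over 25623 regions). The share of knockout minus wild-type libraries calling it was -50 percentage points. With lists of equal length it was 0 because no library of either genotype then called the region. The next protein-coding gene, Alpk1, begins 14235 bp further on and is slightly nearer to the region than Neurog2 is.

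A second region beyond the 3′ end (127646358 to 127646677), 10.7 kb away, was called in knockout libraries 1 and 4 and wild-type library 2, at folds of 4.07 and 5.28 in knockout and 4.65 in wild-type. Upstream of the gene, a region at 127625754 to 127626343, inside the long noncoding RNA gene Gm40147, was called in knockout libraries 3 and 4 and wild-type library 1. There the peaks of knockout library 3 and wild-type library 1 did not overlap each other and were joined by the 590 bp peak of knockout library 4. At the lower end of the gene itself (127632672 to 127632861) knockout library 4 and wild-type library 1 had peaks with folds of 4.75 and 5.27. Each of these 3 regions had a Fisher's exact p of 1.

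Neurog1 (chromosome 13, 56250478 to 56252180), the paralogue that acts with Neurog2 in cortical progenitors, had 1 peak, in knockout library 4, and none in the other 6 libraries. It lay 41.8 kb below the gene at 56208585 to 56208716, with a fold of 3.40, and was nearer to Tifab.

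Among the Neurod genes, Neurod4, a factor of neuronal differentiation that acts with proneural factors, had peaks in every library. At Neurod4 (chromosome 10, 130268152 to 130280254) knockout libraries 1 to 4 held 2, 2, 2 and 3 peaks, against 1, 2 and 1 in wild-type libraries 1 to 3. No knockout library was below a wild-type library, but wild-type library 2 equalled 3 of the knockout libraries. The means were 2.25 ± 0.5 in knockout and 1.33 ± 0.577 in wild-type libraries (SD, n = 4 and 3), a difference of 0.917 with an exact permutation p of 0.114 and an adjusted p of 1 over all loci. This was the smallest p of the 9 members, and the smallest the design allows is 0.0286. The difference ran from 0.667 to 1.25 when single libraries were left out, and it was -0.417 with a window of 10 kb and -0.167 when only peaks nearest to Neurod4 were counted.

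The recurrent regions of Neurod4 lay far beyond its 3′ end, on the side of the olfactory receptor gene Olfr827. The region 29.1 kb away (chromosome 10, 130238796 to 130239065) was called in 4 of 4 knockout and 1 of 3 wild-type libraries (Fisher's exact p = 0.143, adjusted p = 1). It lies slightly nearer to Olfr827, at 27668 bp, than to Neurod4. Its folds were 4.47, 7.12, 3.64 and 4.80 in knockout libraries 1 to 4 and 5.32 in wild-type library 2. The peaks of knockout libraries 2 and 3 had identical bounds, 130238881 to 130238977, and all 5 shared 87 bp. With lists of equal length the share of knockout minus wild-type libraries calling it was 16.7 percentage points in place of 66.7. The region 39.6 kb away (130228380 to 130228523) was called in knockout libraries 2, 3 and 4 and in wild-type library 1, at folds of 4.90, 5.15 and 6.49 in knockout and 4.58 in wild-type (Fisher's exact p = 0.486). With lists of equal length its difference was 75 percentage points in place of 41.7. This region too lies nearer to Olfr827, at 17252 bp, than to Neurod4.

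Closer to the start of Neurod4, the shared calls came from wild-type libraries. A region 1.8 kb upstream (130282032 to 130282447) was called in 0 of 4 knockout and 2 of 3 wild-type libraries (Fisher's exact p = 0.143, adjusted p = 1), at folds of 3.82 in wild-type library 2 and 4.29 in wild-type library 3. Its 2 peaks overlapped by 44 bp. Peaks called in a single library lay 4.7 kb beyond the 3′ end in knockout library 4 and 13.6 kb upstream in knockout library 1.

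**Figure D4:**
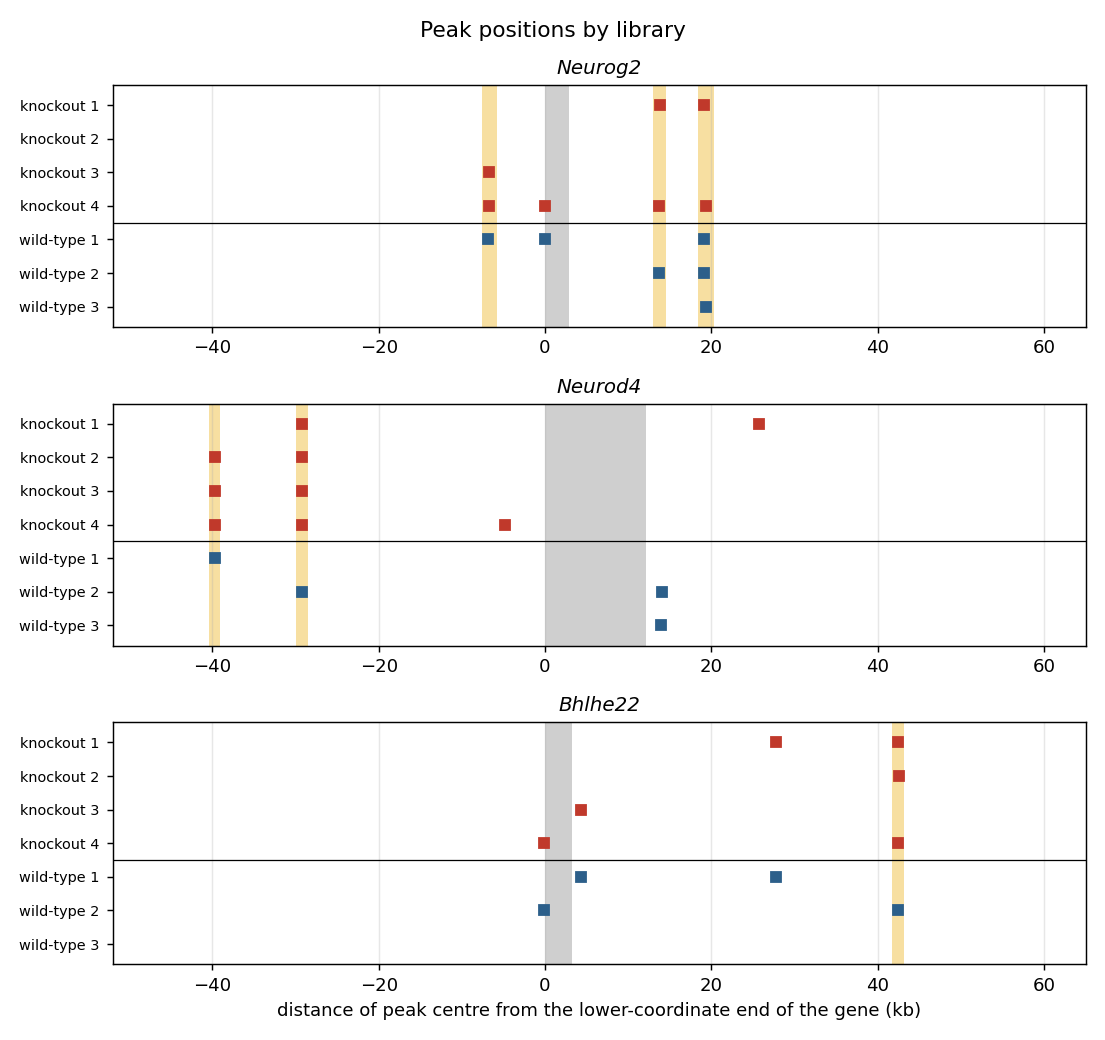
Peak centres at Neurog2, Neurod4 and Bhlhe22 by library, as distance from the lower-coordinate end of the gene in kb, with knockout libraries (red) above wild-type libraries (blue), the gene in grey and regions called in at least 3 libraries as yellow bands, where squares and yellow bands are drawn wider than the peaks and regions. At Neurod4 the band at about 29 kb below the gene is filled in 4 of 4 knockout and 1 of 3 wild-type libraries, and at Neurog2 the band farthest right is filled in 2 of 4 knockout and 3 of 3 wild-type libraries.

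The other Neurod genes had few peaks. Neurod1 (chromosome 2, 79452637 to 79456636), which acts in the step from intermediate progenitor to neuron, had 2 peaks in knockout library 4 and none in the other libraries. The first, at 79456877 to 79456984 with a fold of 3.75, is the one that touches the promoter window printed above, and its −log10 q of 1.47 placed it above only 11.3% of the peaks of its list. The second lay 42.8 kb away at a fold of 3.40. Neurod2 (chromosome 11, 98325415 to 98329645), a factor of postmitotic excitatory neurons, had 1 peak, in knockout library 3, which lay 2130 bp from Cdk12 and 42.1 kb from Neurod2. Each of the 2 genes had an exact permutation p of 1, the only value possible when a single library, a knockout, holds peaks.

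Neurod6 (chromosome 6, 55677818 to 55681263), a marker of cortical projection neurons, held 1, 0, 0 and 1 peaks in knockout libraries 1 to 4, against 2, 0 and 0 in wild-type libraries 1 to 3. Calls came from 2 of 4 knockout and 1 of 3 wild-type libraries, and the genotypes overlapped (exact permutation p = 1). The region shared by these 3 libraries lay 19.3 kb upstream, inside the long noncoding RNA gene Gm34676 (chromosome 6, 55700519 to 55701113). Its deposited folds were 4.62 and 4.56 in knockout and 4.80 in wild-type. Without wild-type library 1 the difference between the means was 0.5 peaks in place of -0.167.

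Bhlhe22 encodes a bHLH repressor of postmitotic cortical neurons, and Nhlh1 and Nhlh2 encode bHLH factors of young neurons. At Bhlhe22 (chromosome 3, 18054325 to 18057514) knockout libraries 1 to 4 held 2, 1, 1 and 2 peaks, against 2, 2 and 0 in wild-type libraries 1 to 3. The only library without a peak was wild-type library 3, and the difference of 0.167 between the means became -0.5 without it (exact permutation p = 1 with all libraries). The region most often called lay 39.2 kb above the gene and inside Cyp7b1, a gene of oxysterol metabolism (chromosome 3, 18096684 to 18096910). It was called in knockout libraries 1, 2 and 4 and in wild-type library 2, at folds of 5.39, 5.13 and 4.91 in knockout and 5.08 in wild-type (Fisher's exact p = 0.486, adjusted p = 1). The other 3 regions were each called in 1 knockout and 1 wild-type library. They include a region 28 bp below the lower end of the gene (18054083 to 18054297), called in knockout library 4 and wild-type library 2 at folds of 4.12 and 5.14.

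Nhlh1 (chromosome 1, 172052292 to 172057596) held 0, 1, 0 and 1 peaks in knockout libraries 1 to 4, against 0, 1 and 1 in wild-type libraries 1 to 3. No position was called in more than 2 libraries. The peaks of knockout library 2 and wild-type library 3 shared a region 488 bp from Vangl2, and that of knockout library 4 lay where Ncstn and Copa overlap, so that only the peak of wild-type library 2, at 3604 bp, was nearer to Nhlh1 than to any other protein-coding gene. Nhlh2 (chromosome 3, 102010111 to 102015492) had 2 peaks in knockout library 4 and none in the other libraries. The nearer lay 9857 bp beyond the 3′ end, with a fold of 5.22. Both genes had an exact permutation p of 1, which for Nhlh2, with peaks in a single knockout library, is the only value possible.

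Of the 9 members, 6 had a higher and 3 a lower mean number of peaks in knockout than in wild-type libraries, against 40.5% higher and 26.2% lower of all protein-coding loci, the rest having equal means. The 4 members called in a single library each, a knockout, are all among the 6. The median difference over the members was 0.25 peaks, against 0 over all loci. Of the 9, 0 passed the exact permutation test at an adjusted p under 0.05 and 0 had an unadjusted p under 0.05, against 0% and 0.228% of all protein-coding loci. With a smallest p of 0.0286, no locus could pass after adjustment unless most of the 21887 loci reached that p. Loci in which every knockout library lay above every wild-type library numbered 0 of 9, against 0.0914% of all loci, and those in which every knockout library lay below numbered 0 of 9, against 0.146%. Where the share over all loci is this low, 0 of 9 says little about the members. Fgf13, a gene of the fibroblast growth factor family, had the same number of peaks as Neurod4 in each of the 7 libraries and was the only protein-coding locus outside the members' windows to do so, while 12 loci, among them Art4 and BC049715, differed from it by 1 peak in 1 library.

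Merged over libraries, the 50 peaks formed 24 regions, none of them shared by the windows of 2 members. Regions called in every knockout and no wild-type library numbered 0 of 24, against 0.109% of all regions, and regions called in every wild-type and no knockout library 0 of 24, against 0.133%. Each count became 1 when a single wild-type library was left out, the Neurod4 region 29.1 kb away without wild-type library 2 and the Neurod4 region 1.8 kb upstream without wild-type library 1. By Fisher's exact test 0 of 24 had an unadjusted p under 0.05, against 0.242% of all regions. With 4 and 3 libraries only a complete split of the genotypes can give such a p, so this count restates those above and adds no further test. At shares this low, 0 of 24 says little about the member regions. After adjustment 0 of all 25623 regions had a p under 0.05, and none could unless most regions split the genotypes completely. Both genotypes called 12 of the 24 regions (50%, against 44.2% of all regions), only knockout libraries called 9 (37.5%, against 39.6%) and only wild-type libraries called 3 (12.5%, against 16.2%). Knockout library 4 alone called 7 (29.2%, against 25.3%).

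Recurrence among libraries was not above that of other regions. At least 3 libraries called 7 of the 24 regions (29.2%), against 35.1% of all regions, and at least 5 called 2 (8.33%), against 17.5%. No member region was called in all 7 libraries or in 6, whereas 5.06% of all regions were called in all 7. Of the member regions of knockout library 4, 9 of 16 were called in another library too (56.3%, against 62.7% of all its regions). In the other 6 libraries the share ran from 80.0% to 100%, against 82.5% to 91.7% of all regions of the same libraries. By position, 3 of 24 regions lay within 1 kb of an end of the member and 15 of 24 more than 10 kb from it. Most of each window lies more than 10 kb from the gene, and no share over all regions was computed, so these counts only describe position.

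Peaks in the bHLH loci ranked near the middle of their lists, at a median percentile of 45.8 by q. Their fold enrichment ran from 3.40 to 7.12 with a median of 4.57, and the medians per library were 4.62, 5.01, 4.15 and 4.54 in knockout libraries 1 to 4, where the whole lists had 4.77, 4.81, 4.35 and 4.41. In wild-type libraries 1 to 3 they were 4.54, 4.91 and 4.39, where the whole lists had 4.69, 4.70 and 4.35. Only 2 of the 50 peaks had a −log10 q of at least 5, both at Neurod4, in knockout libraries 2 and 4, and 36 had one of at least 2. The folds and q come from the authors' peak calls, rank peaks within 1 list, and where folds of both genotypes are given side by side no difference is read from them.

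**Figure D5:**
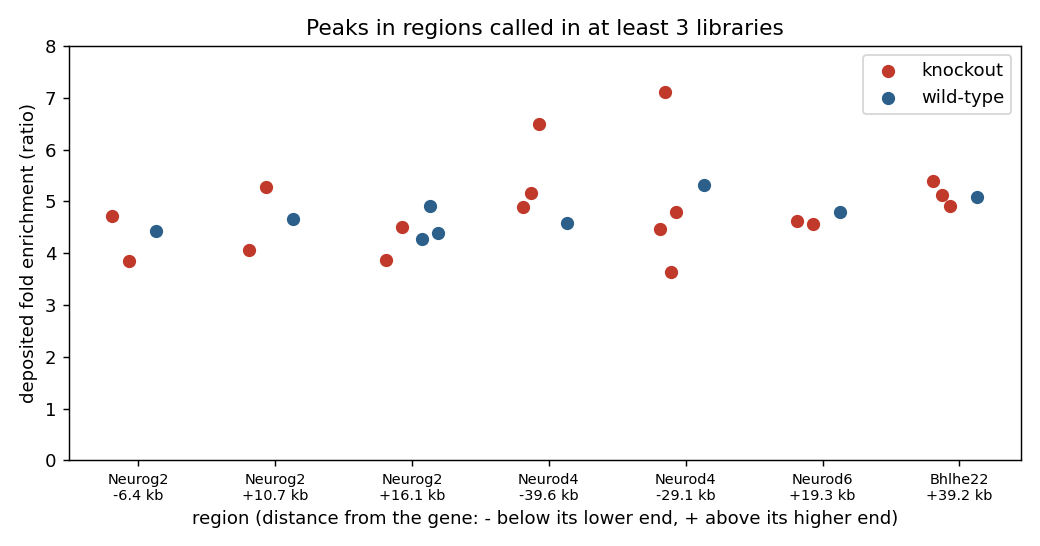
Deposited fold enrichment of each library's peak in the 7 regions called in at least 3 libraries, with knockout (red) left of wild-type (blue) in each region and a linear axis from 0. The points lie between 3.64 and 7.12, and since each fold belongs to its own list their heights are not compared between genotypes.

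Genes linked to the proneural program were described in the same way. Of 16 proneural targets and cofactors, 6, 4, 5 and 10 loci had a peak in knockout libraries 1 to 4, against 5, 7 and 4 in wild-type libraries 1 to 3, so that the genotypes overlapped. The means were 6.25 ± 2.63 loci in knockout and 5.33 ± 1.53 in wild-type libraries (SD, n = 4 and 3), and without knockout library 4 the difference of 0.917 was -0.333. Dll1, the Notch ligand that proneural factors switch on, held 1, 0, 0 and 2 peaks in knockout and 2, 1 and 2 in wild-type libraries (exact permutation p = 0.257, adjusted p = 1). Elavl4, an RNA-binding protein of neurons, held 1, 0, 1 and 3 in knockout and 0, 1 and 0 in wild-type libraries (exact permutation p = 0.371, adjusted p = 1). Insm1, a zinc-finger factor of basal progenitor formation, held 1, 1, 0 and 1 in knockout and 0, 0 and 1 in wild-type libraries (exact permutation p = 0.486, adjusted p = 1). Cdk5r1, an activator of the kinase Cdk5 in neurons, tied with Elavl4 and Insm1 in the size of the difference in share of libraries but in the other direction, with 0, 0, 0 and 1 peaks in knockout and 1, 1 and 0 in wild-type libraries (exact permutation p = 0.486, adjusted p = 1). At least 1 library had a peak at 11 of the 16 loci (68.8%, against 69.2% of all protein-coding loci), and Eomes was among the 5 with none. Per library, 17.2% to 60.0% of all protein-coding loci were called in knockout and 28.2% to 38.7% in wild-type libraries.

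Of 21 other bHLH factors, which include Olig, Hes and Hey genes, E proteins and Id inhibitors, 8, 6, 7 and 15 loci had a peak in knockout libraries 1 to 4, against 5, 6 and 4 in wild-type libraries 1 to 3. Every knockout value equalled or exceeded the highest wild-type value. Over all protein-coding loci, 17.2% to 60.0% were called in knockout and 28.2% to 38.7% in wild-type libraries. The means of the list were 9 ± 4.08 loci in knockout and 5 ± 1 in wild-type libraries (SD, n = 4 and 3), a difference of 4 that was below the knockout SD and was 2 without knockout library 4. With a window of 10 kb the values were 6, 5, 5 and 7 in knockout and 4, 1 and 2 in wild-type libraries and did not overlap, while 9.26% to 37.6% of all protein-coding loci were called in knockout and 15.6% to 23.1% in wild-type libraries. With 100 kb they were 9, 10, 8 and 18 in knockout and 9, 12 and 10 in wild-type libraries and overlapped. Atoh1, a proneural gene of the hindbrain, held 1, 0, 1 and 1 peaks in knockout and none in wild-type libraries (exact permutation p = 0.143, adjusted p = 1). Tcf12 and Tcf4, which encode E proteins that pair with proneural factors, held 1, 0, 1 and 3 and 2, 1, 1 and 3 in knockout libraries, against 0, 0 and 0 and 0, 0 and 1 in wild-type libraries (exact permutation p = 0.143 and p = 0.171, adjusted p = 1 for both). Olig3, singled out after its values were seen, held the most peaks of the list, with 3, 3, 2 and 3 in knockout and 3, 3 and 1 in wild-type libraries. No locus of either list had an unadjusted exact permutation p under 0.05.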

How the data were processed

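Peak lists of 4 knockout and 3 wild-type ATAC-seq libraries were used as deposited. The submitters' processing notes name MACS2, Bowtie2 2.3.5.1 and SAMtools 1.9 with build GRCm38, and the sources used here give neither settings nor a transposase shift. Each list, as the authors deposited it, gives for each peak a fold enrichment (ratio) and a −log10 q, whose smallest value was 1.30 to 1.32 in the 7 lists.

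Peaks were assigned to RefSeq spans of GRCm38.p6 at 1 bp overlap (Python 3.11.15, pandas 2.3.3, SciPy 1.17.1). Peaks per locus were compared with a two-sided exact permutation test over 35 splits (smallest p 0.0286), and regions with Fisher's exact test, both with Benjamini-Hochberg adjustment over the whole table. The scripts were tested on simulated data. The members and lists were chosen with earlier results of these data known, so totals over a list carry no p, although a permutation test of them had been planned. The exception is the list of other bHLH factors, whose p is given where the dependence on processing is described. Named are all members, their regions called in at least 3 libraries or in every library of 1 genotype alone, up to 3 genes per other list with the largest difference in share of libraries (ties by name, with Cdk5r1 added as tied), and 3 loci most like the member with most peaks (Neurod4, tied with Neurog2 and taken by name). Other regions and genes are named for where they lie or were singled out after their values were seen. Alternatives covered windows, q, equal lists, overlap, merging and leaving out each library.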

Additional observations from a re-analysis of the deposited data

Results flagged for a closer look

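Within the 4 knockout libraries, 1 library lay far from the other 3 in 6 of the 16 measures examined, by Dixon's test at the 95% level, where chance gives about 1 in 20. In all 6 the other 3 knockout libraries had equal values, so that any lone difference is picked out. Knockout library 4 was the high one in 5 of them, with 3 member genes called at an end, 1 peak at Neurog1, 2 at Neurod1, 3 at Neurod4 and 2 at Nhlh2. Knockout library 3 was the high one at Neurod2, with 1 peak. Knockout library 4 has the longest list, at 17362 peaks, and its part in these values was not tested. Wild-type libraries are too few for this test.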

How the results depend on the processing

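No member locus passed its test in the 15 alternative settings in which loci were tested, and no member region in the 15 in which regions were tested. After adjustment over the whole table none could pass unless most loci or regions reached the smallest p, so these counts say little. In addition, p cannot go below 0.0667 without a wild-type or 0.1 without a knockout library. Differences are knockout minus wild-type means, and the sign of the small ones often turned. With −log10 q of at least 2 they were -0.0833 loci called, -0.101 peaks per 1000, -0.167 gene ends, -0.0833 peaks at Bhlhe22 and -8.33 percentage points of libraries at the Neurog2 regions 6.4 kb upstream and 10.7 kb beyond the 3′ end. With −log10 q of at least 5 the gene ends were at 0, since no library had one called, and the targets and cofactors at -0.333 loci. With equal lists the gene ends were at -0.333, the Bhlhe22 region at 50 percentage points and the Neurog2 region 6.4 kb upstream at 25. The Neurod6 region and the Neurog2 region 10.7 kb beyond the 3′ end were then at 0, because no library called either. With 10 kb windows the values were -0.333 peaks, -0.25 loci, -0.0387 per 1000, 0.0833 at Neurog2, -0.417 at Neurod4 and -0.167 at Bhlhe22, while other bHLH factors were at 3.42 loci. That value, for 1 of the 2 lists, was the only one of 223 alternative values with an unadjusted permutation p under 0.05, at the smallest p the design allows (0.0286), and since the lists were chosen with results known it is not evidence of a difference. With the main window of 50 kb the same permutation test of this list gave a p of 0.143. With 100 kb the differences were -0.0833 loci, 0.0833 peaks at Nhlh1 and -0.75 target loci. Counting only peaks nearest to the gene gave -0.038 per 1000, 0.25 at Neurog2, -0.167 at Neurod4 and -0.167 at Bhlhe22, and ends within 2.5 kb gave -0.667. The cause of these changes was not tested.

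With a replicate block over the 3 shared replicate numbers, which also leaves out knockout library 4, the differences were -0.667 peaks, 0 loci, -0.667 gene ends and -0.333 target loci, the same as without knockout library 4 and no block, and this fit cannot go below a p of 0.25. Nothing in the labels says that the numbers pair libraries, and the deviations of same-numbered libraries correlated at 0.001, 0.071 and 0.076 over regions.

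Leaving out 1 library gave -0.667 to 3.33 peaks, 0 to 1.67 loci, 0.0145 to 0.381 per 1000, -0.667 to 0.333 gene ends, -0.333 to 1.75 target loci and 2 to 5 other bHLH loci. The ranges were -1 to 0.333 peaks at Neurog2, -0.5 to 0.5 at Neurod6 and -0.5 to 0.5 at Bhlhe22. Regions separating the genotypes numbered 0 to 1 in each direction, with 1 at Neurod4 without wild-type library 2 or 1. Read depth is unknown, so a missing call is no measure of closed chromatin.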
